A study of Mus musculus with 9 samples.

Results

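The 10 genes followed here are immediate early genes, namely Fos, Fosb, Junb, Egr1, Egr2, Egr3, Npas4, Nr4a1, Nr4a3 and Arc. Their levels were measured by RNA-seq in the striatum of mouse embryos at E17.5. The genes were chosen by name, with earlier results of these data known. A gene was included where its Ensembl identifier carried 1 of these symbols in the GENCODE M21 annotation. All 10 were found among the 44886 gene identifiers, and all 10 were among the 16368 genes with enough reads to be tested. The study asked how loss of the transcription factor Ebf1 changes striatal development, and compared 9 embryos of 3 labelled genotypes, with 3 embryos each. The study's methods describe heterozygous embryos as controls, and whether the controls sequenced here carried a Cre allele was not given in the sources used here. Embryos labelled Islet1Cre;Ebf1fl/- and Dlx5/6::Cre;Ebf1fl/- carried 1 floxed and 1 null Ebf1 allele. Islet1Cre recombines in direct pathway striatal projection neurons and in cholinergic interneurons, and Dlx5/6::Cre in all striatal projection neurons and interneurons, so that tissue of both mutants also held cells with an intact floxed allele. The Islet1Cre line was kept on a mixed B6D2F1/J background and the other lines on a C57/Bl6 background, and the labels give C57BL/6 for every sample.

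Immediate early genes are transcribed within minutes of a stimulus from factors that are already present in the cell, without new protein synthesis. In neurons calcium entry and growth factor signals switch them on through kinases that act on CREB, SRF with its ELK partners, and MEF2 proteins, and the transcripts are short-lived. Most of them encode transcription factors. Fos, Fosb and Junb are subunits of the AP-1 dimer, Egr1, Egr2 and Egr3 are zinc finger factors, Npas4 is a factor of the bHLH-PAS family that responds to calcium, and Nr4a1 and Nr4a3 are orphan nuclear receptors. Arc encodes a synaptic protein that takes part in the endocytosis of AMPA receptors.

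The libraries held from 16548083 to 41507049 reads assigned to genes. Several of them stood apart. In the embryo labelled Dlx5/6::Cre;Ebf1fl/- replicate 1, summed markers of progenitors and radial glia reached 1707 CPM (counts scaled to library size) against 709 to 919 in the other 8 embryos, cortical excitatory neuron markers reached 223 CPM against 39.1 to 110.2, and markers of striatal projection neurons were the lowest, at 2307 CPM against 2729 to 3303. All 9 genes of each of the first 2 lists were highest in that embryo. Control replicate 3 and Islet1Cre;Ebf1fl/- replicate 3 held reads of both Xist (396 and 245 CPM) and 4 Y-linked genes (9.69 and 82.7 CPM in sum). Xist is expressed in females and Y-linked genes in males. Whether these libraries hold material of more than 1 embryo was not tested, and each is called an embryo below, as labelled. Control replicate 2 held Y-linked reads (125 CPM) and almost no Xist (0.107 CPM). All Dlx5/6::Cre;Ebf1fl/- embryos held Xist (359 to 490 CPM) and at most 0.0263 CPM of the Y-linked genes. Sex was thus not balanced between genotypes, and its part in the early gene levels was not tested. The Ebf1 count did not separate the genotypes, with 7945, 14208 and 9697 normalized counts in controls, 15343, 13866 and 13210 in Islet1Cre;Ebf1fl/- and 11774, 13079 and 15312 in Dlx5/6::Cre;Ebf1fl/- embryos. It is a count over the whole gene and does not check the deletion of the floxed part. By immunostaining at E17.5 the study found no Ebf1 protein in the striatum of either mutant. That staining does not check the single libraries, so genotypes below are as labelled.

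The sequences just upstream of these genes are shown for 5 members: Fos and Nr4a1, and Fosb and Nr4a3, which are the 2 pairs whose levels ran closest over the 9 embryos, and Npas4, which ran unlike both. Each window holds 250 bases before and 50 bases from the start site of a RefSeq transcript on GRCm38.p6, read 5′ to 3′ on the strand of the gene. Fos lies at chr12:85473640-85473939 (plus strand), Nr4a1 at chr15:101266596-101266895 (plus), Fosb at chr7:19309996-19310295 (minus), Nr4a3 at chr4:48045055-48045354 (plus) and Npas4 at chr19:4989922-4990221 (minus). Capitals mark the 5 core letters of the cAMP response element (CRE), the site bound by CREB, which read TGACG on the strand shown or CGTCA where the match is on the other strand.
Fos: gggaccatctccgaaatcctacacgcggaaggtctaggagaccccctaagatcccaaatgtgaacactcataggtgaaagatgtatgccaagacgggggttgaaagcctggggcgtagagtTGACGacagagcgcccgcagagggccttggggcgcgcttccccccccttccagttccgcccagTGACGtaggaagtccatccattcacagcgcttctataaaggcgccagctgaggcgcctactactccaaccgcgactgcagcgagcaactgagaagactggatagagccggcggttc
Nr4a1: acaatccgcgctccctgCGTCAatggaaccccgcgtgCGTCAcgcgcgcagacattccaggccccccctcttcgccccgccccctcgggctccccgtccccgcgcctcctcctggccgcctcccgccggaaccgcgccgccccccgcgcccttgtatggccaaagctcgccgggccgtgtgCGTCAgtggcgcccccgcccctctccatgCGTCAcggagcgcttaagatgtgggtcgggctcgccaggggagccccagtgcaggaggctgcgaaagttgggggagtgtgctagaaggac
Fosb: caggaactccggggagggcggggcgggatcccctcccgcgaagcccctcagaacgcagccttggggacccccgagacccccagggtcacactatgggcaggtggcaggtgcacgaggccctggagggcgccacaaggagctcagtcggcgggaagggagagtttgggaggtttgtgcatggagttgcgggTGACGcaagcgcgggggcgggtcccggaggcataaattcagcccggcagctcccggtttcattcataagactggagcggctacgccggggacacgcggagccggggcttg
Nr4a3: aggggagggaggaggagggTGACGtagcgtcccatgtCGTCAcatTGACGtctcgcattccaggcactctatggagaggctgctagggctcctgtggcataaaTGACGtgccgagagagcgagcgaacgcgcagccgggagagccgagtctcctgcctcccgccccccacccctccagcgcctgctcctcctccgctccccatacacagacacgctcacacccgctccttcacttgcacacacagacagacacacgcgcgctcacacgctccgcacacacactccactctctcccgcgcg
Npas4: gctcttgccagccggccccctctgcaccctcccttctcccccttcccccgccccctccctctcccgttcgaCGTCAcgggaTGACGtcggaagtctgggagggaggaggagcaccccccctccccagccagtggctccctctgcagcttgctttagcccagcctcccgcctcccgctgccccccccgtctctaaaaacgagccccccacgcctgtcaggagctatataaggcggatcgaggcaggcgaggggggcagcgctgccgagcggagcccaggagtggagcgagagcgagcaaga
The core occurred 2 times in the Fos window, 4 times in that of Nr4a1, 1 time in that of Fosb, 4 times in that of Nr4a3 and 2 times in that of Npas4. Windows were searched for 7 of the 10 genes, and none was searched for Arc, Egr1 and Egr3. Each of the 7 held the core in at least 1 window, the others being Junb with 1 match and Egr2 with 2. Among all 32851 promoter windows of this length, 20.8% held it. The complete palindrome, in which TGACG is followed by TCA, was present in 1.79% of all windows and in none of these 7 genes. The letters GCGNGGGCG of the site bound by Egr factors, searched on both strands, matched 1 time each in the windows of Fosb and Nr4a1 and in 5.55% of all windows. The CArG box bound by SRF matched in Egr2 windows only among the 7 genes, and in 1.63% of all windows. Arc, Egr1 and Egr3, and sequence more than 250 bases before a start site, were not searched for any of these sites.

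All 10 genes were transcribed at a measurable level in control striatum. On a scale per length (RPKM, reads scaled to the exon length of the gene and to the size of the library), the control means ran from 9.77 ± 1.00 (SD, n = 3) for Nr4a1 to 0.265 ± 0.0445 for Egr2, and the median of all tested genes was 4.89. Nr4a1 was followed by Junb at 9.19 ± 0.703, Arc at 8.27 ± 0.174, Egr1 at 7.27 ± 1.75 and Npas4 at 6.65 ± 2.36 RPKM. Egr3, Fos and Nr4a3 lay lower, at 3.27 ± 0.936, 2.63 ± 0.383 and 1.97 ± 0.610 RPKM, and Fosb was at 0.478 ± 0.152 RPKM (0.790 ± 0.250 with the length of its longest transcript in place of all its exons). Along this order the ranges of the control embryos were apart between Junb and Arc, between Npas4 and Egr3, between Nr4a3 and Fosb, and between Fosb and Egr2, while the other neighbours overlapped. Raw counts ranged from 14 to 50 reads per library for Egr2, from 59 to 247 for Fos and from 419 to 1346 for Egr1, so counting error weighed most on Egr2.

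In the comparisons with control, no immediate early gene passed the edgeR test across all genes, while DESeq2 and edgeR without a filter on low counts each called Npas4 and Nr4a1 lower in Dlx5/6::Cre;Ebf1fl/- embryos, and Arc passed in some edgeR fits on fewer embryos. In Islet1Cre;Ebf1fl/- embryos 8 of 10 had a lower estimate (50.5% of all genes did), and the lowest were Fos at 0.639 of the control level, Nr4a1 at 0.682 and Arc at 0.729. In Dlx5/6::Cre;Ebf1fl/- embryos 7 of 10 had a lower estimate (47.7% of all genes did), and the lowest were Npas4 at 0.548, Arc at 0.601 and Nr4a1 at 0.661 of control. Some marker sums of other cells lay above every control in that genotype. Summed cortical excitatory neuron markers were at 223, 101 and 110.2 CPM in its embryos against 92.6, 70.8 and 41.0 in controls. In Islet1Cre;Ebf1fl/- embryos they were at 70.6, 39.1 and 70.7. Summed microglia markers were at 121, 125 and 108 CPM against 99.2, 98.3 and 91.2 in controls, and at 110, 85.0 and 94.1 in Islet1Cre;Ebf1fl/- embryos. Summed striatal projection neuron markers, at 2307, 2730 and 2901 CPM in Dlx5/6::Cre;Ebf1fl/- embryos, overlapped the controls at 2729, 3059 and 3303. The median log2 fold change of the 9 cortical markers was 0.99 (0.62 without replicate 1 and 0.27 without the 3 libraries that stood apart). Of the cortical markers 0 of 9 passed the edgeR test, of the microglia markers 1 of 9 (Fcrls, higher) and of the projection neuron markers 1 of 12 (Foxp1, lower). The part of these markers in the early gene levels was not tested. Junb, Nr4a1 and Arc were below every control in each of the 6 mutant embryos, as were 4.08% of all genes, and Egr3 had a higher estimate in both genotypes. Both comparisons use the same 3 controls, so they are not independent of each other, and in tissue of mixed cells fewer cells of a type and less RNA per cell cannot be told apart.

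**Figure D1:**
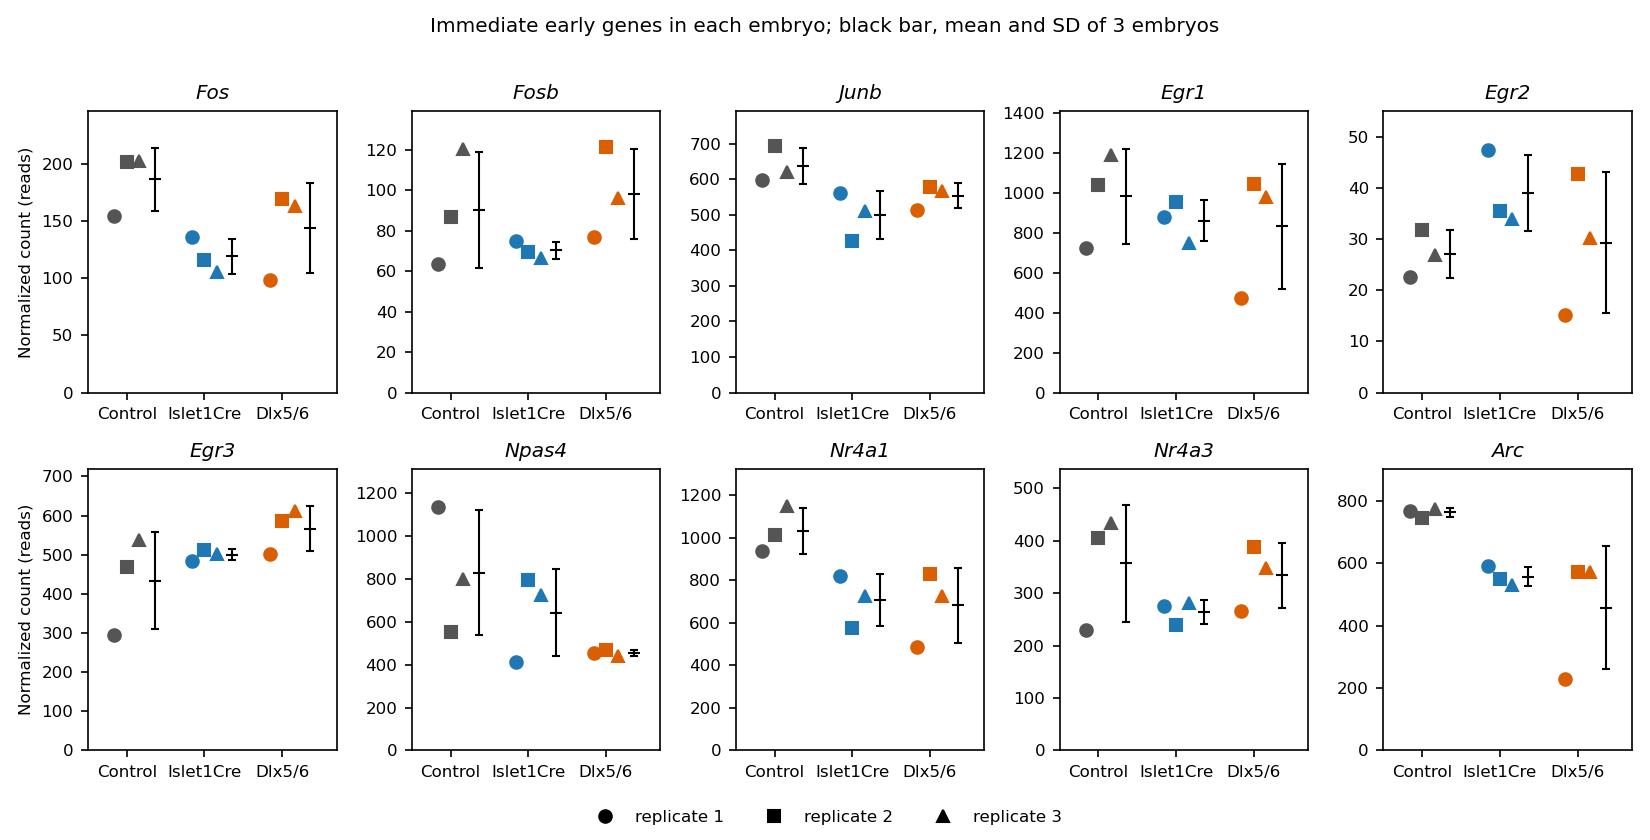
Normalized counts (reads, linear axis from 0) of the 10 genes in each of the 9 embryos, by labelled genotype, with replicate numbers as marker shapes and black bars for the mean and SD of 3 embryos. Arc lies between 746 and 774 in controls and between 229 and 590 in all 6 mutant embryos.

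Fos, whose product pairs with Jun proteins in AP-1, had 155, 202 and 203 normalized counts in controls, 136, 116 and 106 in Islet1Cre;Ebf1fl/- embryos, and 98.2, 169 and 163 in Dlx5/6::Cre;Ebf1fl/- embryos. All 3 Islet1Cre;Ebf1fl/- embryos were below all controls, whereas 2 of the Dlx5/6::Cre;Ebf1fl/- embryos lay within the control range and replicate 1 was the lowest of the 9. In Islet1Cre;Ebf1fl/- embryos Fos had a log2 fold change of -0.65 (SE 0.23, 95% interval -1.16 to -0.13), which did not pass the test across all genes (adjusted p = 0.394, edgeR quasi-likelihood test with Benjamini-Hochberg adjustment). In Dlx5/6::Cre;Ebf1fl/- embryos it had a log2 fold change of -0.37 (SE 0.23, edgeR adjusted p = 0.460), and -0.10 when Control 3, Islet1Cre;Ebf1fl/- 3 and Dlx5/6::Cre;Ebf1fl/- 1 were left out.

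Junb, a Jun family partner of Fos, had 597, 693 and 621 normalized counts in controls, 560.0, 426 and 510.1 in Islet1Cre;Ebf1fl/- embryos, and 513, 579 and 568 in Dlx5/6::Cre;Ebf1fl/- embryos. No mutant embryo reached the lowest control, but the gap between the highest mutant and the lowest control was small. The log2 fold changes were -0.36 (SE 0.12, adjusted p = 0.340) and -0.20 (SE 0.12, adjusted p = 0.450) by edgeR. Junb shares 351 bases, at chr8:84974484-84974834, with the oppositely transcribed Prdx2, and since the strand setting of the counting was not given in the sources used here, reads there may have been credited to either gene or to none.

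Fosb, another AP-1 subunit of the Fos family, had 63.3, 86.6 and 120.2 normalized counts in controls, 74.8, 69.5 and 66.2 in Islet1Cre;Ebf1fl/- embryos, and 76.6, 121 and 96.2 in Dlx5/6::Cre;Ebf1fl/- embryos, so the controls spanned nearly the range of all 9. Its log2 fold changes were -0.36 (SE 0.27, adjusted p = 0.934) and 0.12 (SE 0.26, adjusted p = 0.864) by edgeR, and the latter became -0.30 when Control 3, the only control whose embryo code starts with D, was compared with the Dlx5/6::Cre;Ebf1fl/- embryos alone.

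Egr1, an early transcription factor of the zinc finger family, had 723, 1038 and 1189 normalized counts in controls, 879, 955 and 749.9 in Islet1Cre;Ebf1fl/- embryos, and 475, 1045 and 978 in Dlx5/6::Cre;Ebf1fl/- embryos. All 3 Islet1Cre;Ebf1fl/- embryos lay within the control range, and among the Dlx5/6::Cre;Ebf1fl/- embryos replicate 1 alone was outside it. The log2 fold changes were -0.19 (SE 0.26, adjusted p = 0.999) and -0.24 (SE 0.26, adjusted p = 0.705) by edgeR, and the second was 0.040 without Dlx5/6::Cre;Ebf1fl/- replicate 1.

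Egr2 had the fewest reads, with 22.6, 31.8 and 26.9 normalized counts in controls, 47.6, 35.5 and 34.0 in Islet1Cre;Ebf1fl/- embryos, and 15.1, 42.8 and 30.2 in Dlx5/6::Cre;Ebf1fl/- embryos. It was the 1 gene of the 10 that lay above all controls in every Islet1Cre;Ebf1fl/- embryo, as 7.83% of all genes did, with a log2 fold change of 0.52 that did not pass the test (SE 0.36, 95% interval -0.28 to 1.31, edgeR adjusted p = 0.911). In the Dlx5/6::Cre;Ebf1fl/- embryos it spread on both sides of the controls, with a log2 fold change of 0.12 (SE 0.36).

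Egr3, which acts downstream of other early signals in neurons, had 296, 468 and 539 normalized counts in controls, 485, 513 and 501 in Islet1Cre;Ebf1fl/- embryos, and 501, 587 and 612 in Dlx5/6::Cre;Ebf1fl/- embryos. Control replicate 1 was well below the other 8 embryos, and the remaining controls overlapped the mutants. The log2 fold changes were 0.20 (SE 0.19, adjusted p = 0.976) and 0.39 (SE 0.19, adjusted p = 0.351) by edgeR, and without Control replicate 1 they were -0.010 and 0.17.

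Npas4, which in neurons is induced by depolarization and calcium, had 1135, 552 and 800.3 normalized counts in controls, 413, 792 and 723 in Islet1Cre;Ebf1fl/- embryos, and 453, 469.9 and 441 in Dlx5/6::Cre;Ebf1fl/- embryos. The Dlx5/6::Cre;Ebf1fl/- embryos were tightly grouped below all controls at 455 ± 14.4 (SD, n = 3), against 829 ± 293 in controls, while the Islet1Cre;Ebf1fl/- embryos fell on both sides of the lowest control. In Dlx5/6::Cre;Ebf1fl/- embryos the log2 fold change was -0.87 (SE 0.27, 95% interval -1.46 to -0.28), which did not pass the test over all genes (edgeR adjusted p = 0.143). It was -0.57 without Control replicate 1 and -0.89 with the 3 libraries that stood apart left out. DESeq2, which called 5.27% of all genes in this comparison, called Npas4 lower (adjusted p = 0.0228), and edgeR without a filter on low counts, which called 2.67%, did so too (adjusted p = 0.0183). In Islet1Cre;Ebf1fl/- embryos the log2 fold change was -0.37 (SE 0.27, edgeR adjusted p = 0.929).

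Nr4a1, a nuclear receptor without a known ligand, had 936, 1014 and 1149 normalized counts in controls, 819.5, 578 and 725 in Islet1Cre;Ebf1fl/- embryos, and 487, 832 and 726 in Dlx5/6::Cre;Ebf1fl/- embryos. No mutant embryo of either genotype reached the lowest control. The log2 fold changes were -0.55 in Islet1Cre;Ebf1fl/- embryos (SE 0.19, 95% interval -0.97 to -0.14, edgeR adjusted p = 0.340) and -0.60 in Dlx5/6::Cre;Ebf1fl/- embryos (SE 0.19, 95% interval -1.01 to -0.18, edgeR adjusted p = 0.149). Neither passed the test. In the Dlx5/6::Cre;Ebf1fl/- comparison DESeq2 called it lower (adjusted p = 0.0439), as did edgeR without the filter (adjusted p = 0.0381). With the 3 libraries that stood apart left out, the log2 fold changes were -0.49 and -0.33.

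Nr4a3, the related receptor, had 229.7, 406 and 434 normalized counts in controls, 275, 238 and 281 in Islet1Cre;Ebf1fl/- embryos, and 267, 387 and 347 in Dlx5/6::Cre;Ebf1fl/- embryos. Control replicate 1 was the lowest of all 9 embryos and the other controls were the highest, so both mutant groups overlapped the controls. The log2 fold changes were -0.44 (SE 0.23, adjusted p = 0.761) and -0.094 (SE 0.23, adjusted p = 0.884) by edgeR.

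Arc, the synaptic effector, showed the smallest spread among controls of the 10 genes, with 767, 746 and 774 normalized counts. It had 589.9, 548 and 532 in Islet1Cre;Ebf1fl/- embryos, and 229 in Dlx5/6::Cre;Ebf1fl/- replicate 1 beside 572 and 571 in replicates 2 and 3. All mutants were below all controls, and 5 of the 6 lay between 532 and 589.9. The log2 fold changes were -0.46 in Islet1Cre;Ebf1fl/- embryos (SE 0.26, adjusted p = 0.817) and -0.73 in Dlx5/6::Cre;Ebf1fl/- embryos (SE 0.26, adjusted p = 0.207) by edgeR. When Dlx5/6::Cre;Ebf1fl/- replicate 1 was left out of the fit, Arc passed the test in both, with log2 fold changes of -0.46 (adjusted p = 0.0137) and -0.42 (adjusted p = 0.0288), while 2.38% and 3.68% of all genes passed. It also passed in Islet1Cre;Ebf1fl/- embryos when only those embryos and the controls entered the edgeR fit (adjusted p = 0.0372), where 1.62% of all genes passed, and it passed in neither with the 3 libraries that stood apart left out, at -0.42 (adjusted p = 0.164) and -0.41 (adjusted p = 0.122).

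**Figure D2:**
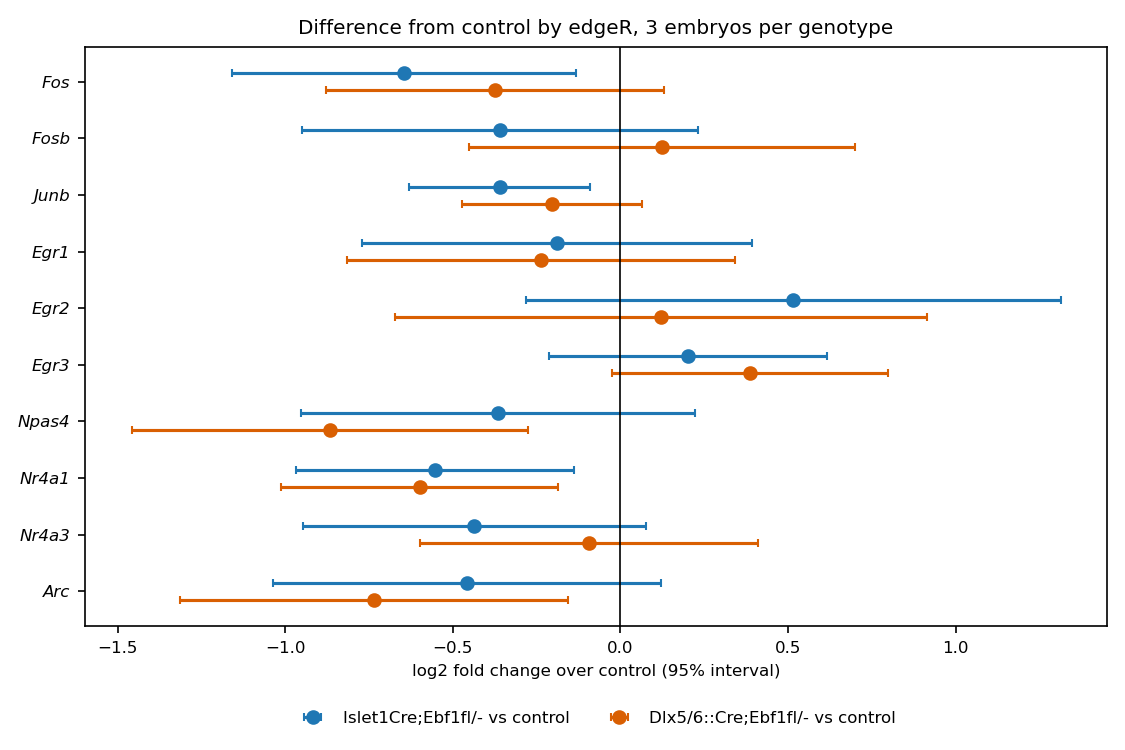
Log2 fold change over control (x axis, edgeR, with 95% intervals as bars) of each of the 10 genes in Islet1Cre;Ebf1fl/- (blue) and Dlx5/6::Cre;Ebf1fl/- (orange) embryos, 3 embryos per genotype and the same 3 controls. The intervals that leave out 0 are those of Fos, Junb and Nr4a1 in the first and of Npas4, Nr4a1 and Arc in the second, all on the lower side, and none passed after adjustment.

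Counted over the 10 genes, 0 passed an adjusted p of 0.05 in Islet1Cre;Ebf1fl/- embryos, where 0.971% of all tested genes passed, and 0 in Dlx5/6::Cre;Ebf1fl/- embryos, where 2.39% passed. At an unadjusted p below 0.05 there were 3 genes in each comparison, all lower, against 3.96% and 7.62% of all genes lower at that level. Every embryo of the mutant group lay below every control for 4 of 10 genes in Islet1Cre;Ebf1fl/- (Fos, Junb, Nr4a1 and Arc) and for 4 of 10 in Dlx5/6::Cre;Ebf1fl/- (Junb, Npas4, Nr4a1 and Arc), beside 7.28% and 11.3% of all genes. The median log2 fold change of the 10 was -0.36 and -0.22, beside -0.0016 and 0.011 over all genes tested. These shares and medians describe genes chosen with earlier results of these data known, and the genes were not tested as a set. The Dlx5/6::Cre;Ebf1fl/- median was -0.057 without replicate 1 of that genotype and 0.046, the other way, without the 3 libraries that stood apart, whereas the Islet1Cre;Ebf1fl/- median was -0.36 in both. A test of a single gene by exact permutation of 3 against 3 embryos cannot go below 0.1, so all p-values here come from fits that share information across genes. They weigh a difference between genotypes against an estimate of the spread between libraries within genotypes.

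Between the mutants, 0 of the 10 genes passed the edgeR test and 0 had an unadjusted p below 0.05, where 0% of all genes passed after adjustment and 5.16% before it. The estimates, Dlx5/6::Cre;Ebf1fl/- minus Islet1Cre;Ebf1fl/-, were 5 lower and 5 higher, with 46.7% of all genes lower, and ran from -0.50 for Npas4 (95% interval -1.10 to 0.093) to 0.48 for Fosb (95% interval -0.11 to 1.07). The interval for Fos was -0.24 to 0.78, for Nr4a1 -0.46 to 0.37 and for Arc -0.86 to 0.31. These intervals leave room for differences as large as those from control, so a like response of the genes in both mutants was not shown. Every Dlx5/6::Cre;Ebf1fl/- embryo was above every Islet1Cre;Ebf1fl/- embryo for Fosb alone among the 10, and for 4.96% of all genes.

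The members varied more between embryos of 1 genotype than most genes. The comparison was not matched for read count. Counting error alone was 14.1% to 26.7% of the count for Egr2, which had the fewest reads. The SD of log2 CPM within genotypes had a median of 0.330 over the 10, beside 0.180 over all 16368 genes. It was highest for Egr2 at 0.451, Arc at 0.438, Egr1 at 0.431 and Npas4 at 0.422, and only that of Junb, at 0.141, was below the median of all genes. Much of it lay in 1 embryo for some genes and not for others. Without Dlx5/6::Cre;Ebf1fl/- replicate 1 the SD of Arc was 0.0499, smaller than that of all but 3.35% of genes, and that of Egr1 was 0.259, whereas Npas4 stayed at 0.463, with 89.8% of genes below it.

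**Figure D3:**
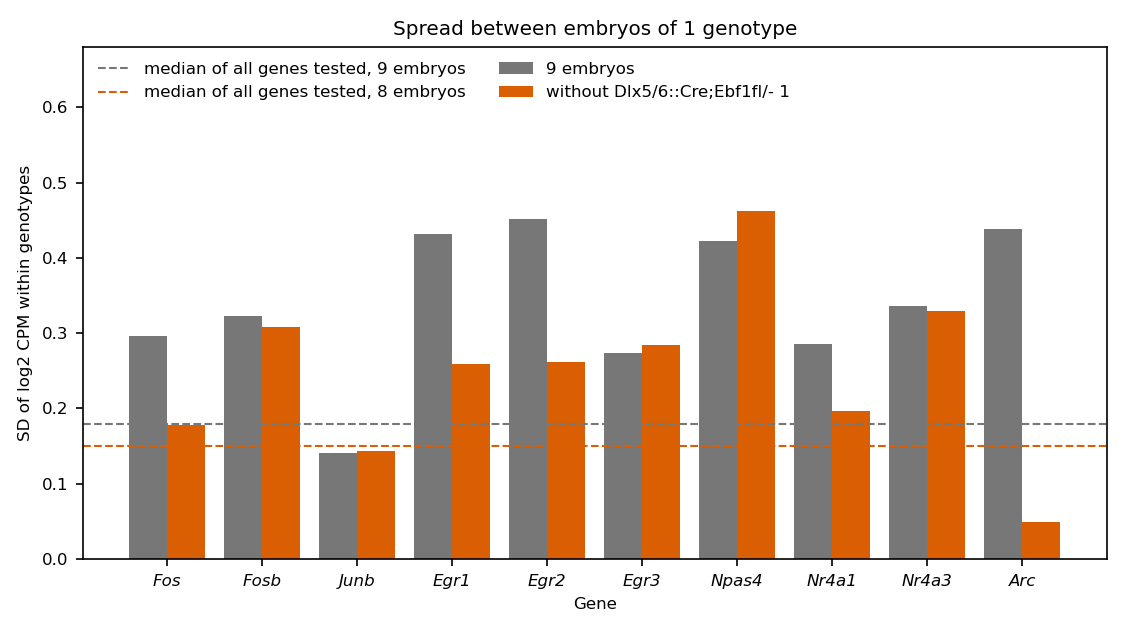
SD of log2 CPM within genotypes (y axis) for each gene over all 9 embryos (grey bars) and without Dlx5/6::Cre;Ebf1fl/- replicate 1 (orange bars), with dashed lines for the median of all tested genes. Arc goes from 0.438 to 0.0499, and Npas4 from 0.422 to 0.463.

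Single embryos were high or low for several early genes at once. How many of all genes were highest or lowest in each embryo was not counted, so these placings have no share over all genes beside them. Of 30 other early genes, listed below, Dlx5/6::Cre;Ebf1fl/- replicate 1 was the highest for 11 and the lowest for 3. Control replicate 3 was the highest for 10 of them and the lowest for 1, and Control replicate 1 the highest for 1 and the lowest for 10. Among the 10 members, Dlx5/6::Cre;Ebf1fl/- replicate 1 was the lowest of the 9 embryos for Fos, Egr1, Egr2, Nr4a1 and Arc, and was above the mean of the gene for 1 of 10 (Egr3). That embryo is the one with the highest progenitor and cortical marker sums and the lowest striatal projection neuron sum, and their part in its low early gene levels was not tested. Control replicate 3 was the highest for Fos, Egr1, Nr4a1, Nr4a3 and Arc and above the mean for 9 of 10. Control replicate 1 was the lowest for Fosb, Egr3 and Nr4a3 and yet the highest for Npas4, at 1135 normalized counts. Its summed blood cell markers were also the highest, at 568 CPM against 267 to 399, and their part was not tested. The 3 Islet1Cre;Ebf1fl/- embryos were above the mean for 3 or 4 of 10 genes each.

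**Figure D4:**
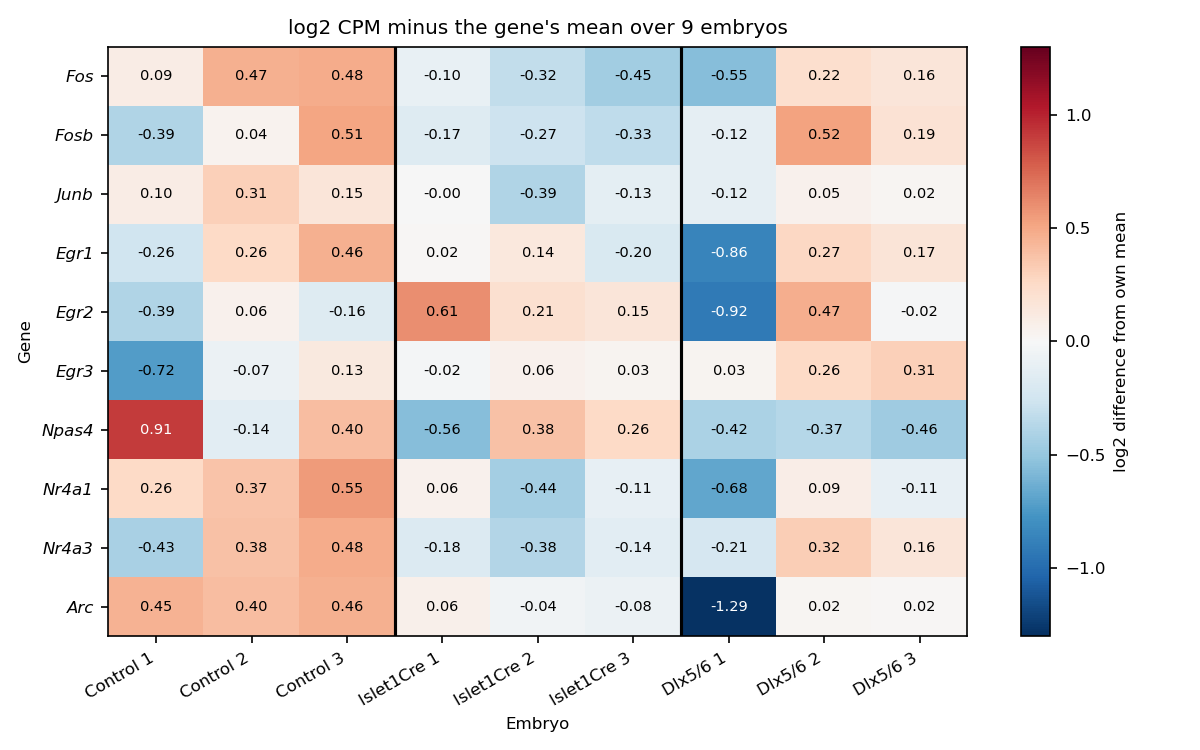
Log2 CPM of each gene (rows) in each of the 9 embryos (columns) minus the mean of that gene, with red above and blue below the mean and the values written in the cells. Arc in Dlx5/6::Cre;Ebf1fl/- replicate 1 is at -1.29 and Npas4 in Control replicate 1 at 0.91.

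As a description of likeness, the root mean square (RMS) difference between the centred log2 profiles of 2 genes over the 9 embryos was smallest for Fosb and Nr4a3, at 0.156, followed by Fos and Nr4a1 at 0.185. It was largest for Egr2 and Npas4, at 0.715. Among 12053 genes (the 10 members and all tested genes with a mean of at least 100 normalized counts), those nearest to Fos were Serpini1 at 0.157, Rsl1 at 0.163, Grid1 at 0.166, 4933407L21Rik at 0.170, Gm26592 at 0.171, Mfhas1 at 0.173 and then Nr4a1. The Fos profile itself deviated from its mean by an RMS of 0.357. Nearest to Npas4 was Col16a1 at 0.111, and nearest to Arc was Frmpd4 at 0.148, and neither had another of the 10 genes among its 3 nearest. When profiles were centred within genotypes, 0 of the 10 genes nearest to Fos were the same.

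Neither the AP-1 partners nor a list of Egr4, Nr4a2 and the Egr co-repressors Nab1 and Nab2 held a gene that passed in either comparison. By edgeR 0 of 6 tested AP-1 partners and 0 of the 4 genes of the second list were called. Their median log2 fold changes were -0.026 and -0.10 in Islet1Cre;Ebf1fl/- embryos, and 0.17 and 0.0041 in Dlx5/6::Cre;Ebf1fl/- embryos, where they were 0.043 and -0.063 without replicate 1. Among them Jun and Nr4a2 were picked for mention after their values were seen. Jun, the main partner of Fos, had 2391 normalized counts in Dlx5/6::Cre;Ebf1fl/- replicate 1 and between 839 and 1330 in the other 8 embryos, so the embryo with the least Fos and Arc had the most Jun. Nr4a2 had 117, 29.1 and 259 normalized counts in Dlx5/6::Cre;Ebf1fl/- embryos against 30.8, 46.5 and 57.7 in controls, and did not pass the test (log2 fold change 1.59, SE 0.63, edgeR adjusted p = 0.259).

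Of 30 other immediate early and activity-induced genes, 0 were called in Islet1Cre;Ebf1fl/- embryos and 1, Gadd45g, was called higher in Dlx5/6::Cre;Ebf1fl/- embryos. The list includes Ier2, Btg2, Dusp1, Homer1, Bdnf and Vgf, and its median log2 fold change was -0.099 and -0.015, or 0.0061 and 0.025 without the 3 libraries that stood apart. Gadd45g, a stress-responsive gene linked to growth arrest that neural precursors also use as they leave the cycle, had 264, 247 and 189.5 normalized counts in controls, 265, 247 and 295 in Islet1Cre;Ebf1fl/- embryos, and 1606, 687 and 747 in Dlx5/6::Cre;Ebf1fl/- embryos. Each Dlx5/6::Cre;Ebf1fl/- embryo was far above the other 6, and replicate 1, with the high progenitor markers, was the highest. The log2 fold change was 2.11 (SE 0.30, edgeR adjusted p = 0.00498), and it was 1.62 without replicate 1 (adjusted p = 0.000354). Set directly against Islet1Cre;Ebf1fl/- embryos, Gadd45g had a log2 fold change of 1.92 (SE 0.30) that did not pass the edgeR test (adjusted p = 0.835). Against control it passed with each of the 9 embryos left out in turn, and missed the threshold when the prefix of the embryo code was a covariate (adjusted p = 0.0991).

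**Figure D5:**
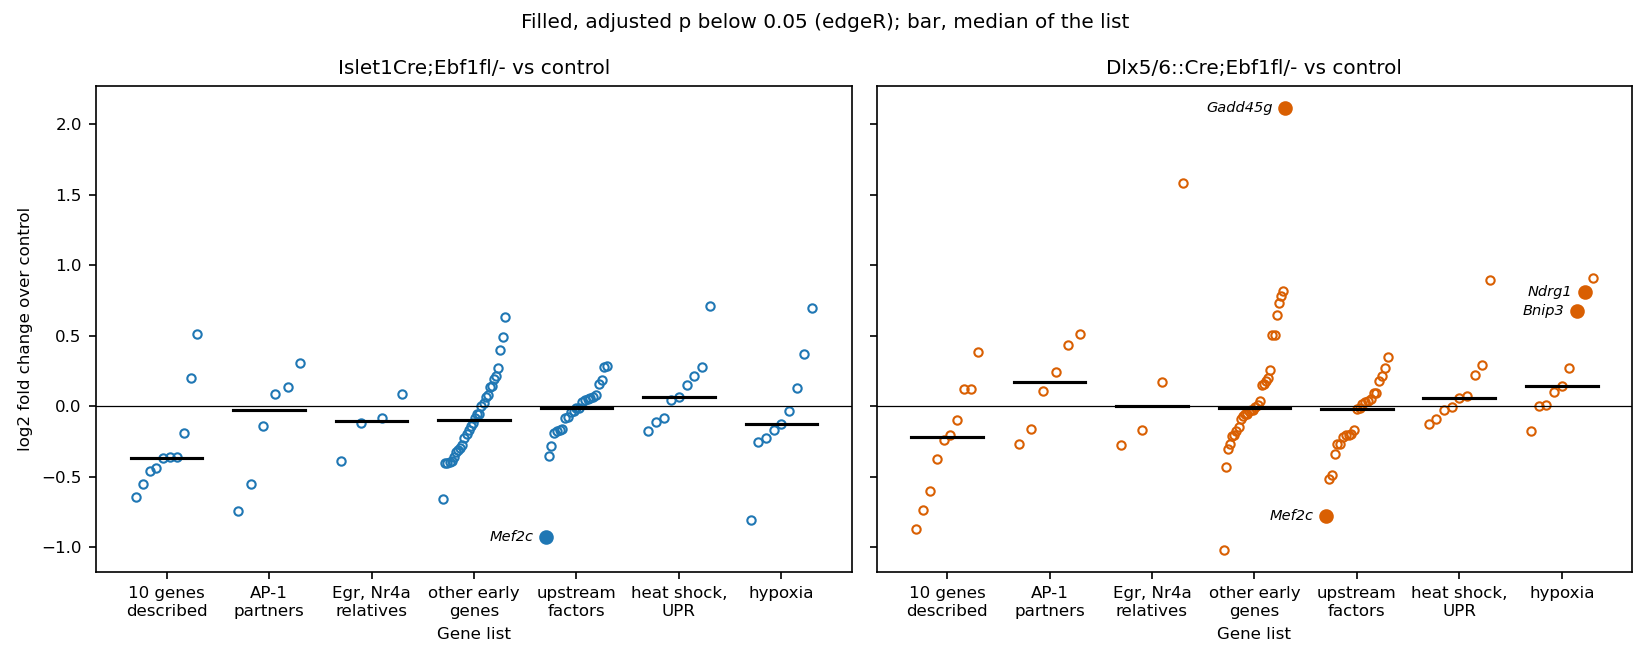
Log2 fold change over control (y axis, edgeR) of each tested gene of 7 lists (x axis) in Islet1Cre;Ebf1fl/- (left) and Dlx5/6::Cre;Ebf1fl/- (right) embryos, with filled points for an adjusted p below 0.05 and bars for list medians. The median of the 10 genes is -0.36 and -0.22 (the latter -0.057 without Dlx5/6::Cre;Ebf1fl/- replicate 1 and 0.046 without the 3 libraries that stood apart), and the called genes are Mef2c on the left and Mef2c, Gadd45g, Bnip3 and Ndrg1 on the right.

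Of 23 factors that act upstream of immediate early genes, such as Srf, Creb1 and the Crtc coactivators, 22 did not pass in either comparison, and the list medians were -0.014 and -0.017, the latter being -0.13 without Dlx5/6::Cre;Ebf1fl/- replicate 1. The exception was Mef2c, a calcium-dependent activator of neuronal early genes, which was called lower in both. Mef2c had 3859, 3781 and 3279 normalized counts in controls, 1923, 1716 and 2126 in Islet1Cre;Ebf1fl/- embryos, and 1587, 2473 and 2305 in Dlx5/6::Cre;Ebf1fl/- embryos. The Mef2c log2 fold changes were -0.93 (SE 0.15, adjusted p = 0.0213) and -0.78 (SE 0.15, adjusted p = 0.0241) by edgeR. Mef2c also passed in both by DESeq2 (adjusted p = 2.1e-06 and 8.3e-05), and by edgeR without the 3 libraries that stood apart (0.0012 and 0.0095). With 1 embryo left out at a time Mef2c passed in 4 and in 6 of 9 fits, with estimates from -1.01 to -0.85 and from -0.90 to -0.61. With the code prefix as covariate the Mef2c call was lost in Dlx5/6::Cre;Ebf1fl/- embryos (-0.63, adjusted p = 0.417) and kept in Islet1Cre;Ebf1fl/- embryos (adjusted p = 0.0457), and with the 6 embryos of the comparison alone it was also lost in the former (adjusted p = 0.0732), all by edgeR.

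Genes that respond to heat shock, unfolded proteins or low oxygen were examined as signs of handling. None of 9 heat shock and unfolded protein genes passed the edgeR test in either comparison, and their median log2 fold changes were 0.068 and 0.057. Without Dlx5/6::Cre;Ebf1fl/- replicate 1, edgeR called the chaperone gene Hsph1 higher in Dlx5/6::Cre;Ebf1fl/- embryos. Hsph1 was above every control in all 6 mutants, with 3082, 3316 and 3513 normalized counts in controls, 4148, 3863 and 4013 in Islet1Cre;Ebf1fl/- embryos (log2 fold change 0.28, edgeR adjusted p = 0.178) and 3848, 4338 and 3974 in Dlx5/6::Cre;Ebf1fl/- embryos (0.29, adjusted p = 0.0789). Hspa1a, at 6.73 to 17.2 normalized counts in controls and 20.5 to 28.2 in mutants, was also above every control and did not pass. Every Islet1Cre;Ebf1fl/- embryo lay above every control for 7.83% of all genes, and the share for all 6 mutants is not given here. Hsph1 and Hspa1a were picked for mention after their values were seen, and their part in the early gene levels was not tested. Of 9 tested hypoxia-induced genes, Bnip3 and Ndrg1 were called higher in Dlx5/6::Cre;Ebf1fl/- embryos, and 0 were called in Islet1Cre;Ebf1fl/- embryos by edgeR. Bnip3, a mitochondrial autophagy factor, had 213, 235 and 232 normalized counts in controls and 399, 373 and 316 in Dlx5/6::Cre;Ebf1fl/- embryos (log2 fold change 0.68, edgeR adjusted p = 0.0329). The Islet1Cre;Ebf1fl/- embryos, at 309, 308 and 263, also lay above every control, as 7.83% of all genes did. Their Bnip3 log2 fold change was 0.37 and did not pass (edgeR adjusted p = 0.467). Ndrg1 had 199.9, 247 and 238 in controls, 375, 358 and 379 in Islet1Cre;Ebf1fl/- embryos and 327, 433 and 439 in Dlx5/6::Cre;Ebf1fl/- embryos (log2 fold change 0.81, edgeR adjusted p = 0.0208). In Islet1Cre;Ebf1fl/- embryos Ndrg1 had a log2 fold change of 0.70 (edgeR adjusted p = 0.0699), and it passed there with DESeq2 (adjusted p = 0.0016), without the filter (0.0413), with the 6 embryos alone (0.0288) and without Dlx5/6::Cre;Ebf1fl/- replicate 1 (0.0090). In Dlx5/6::Cre;Ebf1fl/- embryos with 1 embryo left out at a time, Bnip3 passed in 2 and Ndrg1 in 5 of 9 fits, and both missed the threshold with the code prefix as covariate (edgeR adjusted p = 0.462 and 0.381) and with the 6 embryos alone (0.0884 and 0.0762). Bnip3 also missed it without the 3 libraries that stood apart (0.0903). The summed level of the hypoxia list ranged from 334 to 458 CPM in controls, from 335 to 370.4 in Islet1Cre;Ebf1fl/- and from 373 to 468 in Dlx5/6::Cre;Ebf1fl/- embryos, with 6 of the 10 genes highest in Dlx5/6::Cre;Ebf1fl/- replicate 1, and its part in the early gene levels was not tested.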

How the data were processed

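RNA-seq of dissected striatum from 9 embryos at E17.5 was examined, with groups and replicate numbers taken from the sample titles. The authors deposited raw counts of reads per Ensembl gene. According to the study's methods and the submitters' processing notes, polyA RNA libraries were mapped to mm10 with STAR 2.4.0k within Eoulsan, alignments to several positions were removed, and HTSeq-count 0.5.3 counted reads on Ensembl genes, with a strand setting not given in the sources used here. Removing multiply mapped reads lowers counts of near-identical copies, but no 75-base window of the transcripts of these 10 genes was shared with another gene.

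Of 44886 identifiers, 44048 were found in GENCODE M21. Genes were kept by edgeR's filterByExpr (minimum count 10), which left 16368. Genotypes were compared in 1 fit over all 9 embryos with edgeR 4.0.16 (TMM normalization, quasi-likelihood test) in R 4.3.3, without covariates, and p-values were adjusted over all tested genes by the Benjamini-Hochberg method at a threshold of 0.05. Where no other fit is named, adjusted p-values come from this one. Normalized counts were obtained by dividing counts by DESeq2 size factors, and log2 CPM used a prior count of 2. Intervals are at 95%. RPKM used the union of exons.

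The fit was checked on simulated counts of 16368 genes, 200 of which were set to differ from control. Values follow for Islet1Cre;Ebf1fl/- and then Dlx5/6::Cre;Ebf1fl/- embryos. Of the genes called, 7.5% and 5.6% by edgeR and 17.1% and 19.3% by DESeq2 were not among the 200. EdgeR recovered 74.5% and 75.5% of the 200, and DESeq2 82.5% and 81.5%. Of those set to differ least, edgeR recovered 22% and 30%, and DESeq2 48% and 44%. Alternatives were DESeq2 1.42.0, DESeq2 size factors, no filter or a stricter one (minimum count 50), the 6 embryos of a comparison alone, a replicate block, a covariate for the prefix of the embryo code, and each embryo left out in turn. Fits within a code prefix and without 3 libraries were added after seeing the data. The members, lists and alternatives were chosen with earlier results of these data known. By rule, values are given for the 10 members, Ebf1, called genes of the lists and the genes nearest in profile. Other genes appear as examples of a list, as library checks (Xist), as an overlapping gene (Prdx2) or as picked after their values were seen.

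Embryo codes start with IE for Control 1 and 2 and all Islet1Cre;Ebf1fl/- embryos, and with D for Control 3 and all Dlx5/6::Cre;Ebf1fl/- embryos. Within a group, pairs of libraries differed by a chi-square of 10.8 to 50.5 per degree of freedom, so none was a second read-out of the same library. Pairs across groups were not compared, and separate libraries made from 1 embryo could differ as much. Called in the marker lists were Foxp1, Clic6 (lower) and Fcrls (higher) in Dlx5/6::Cre;Ebf1fl/- embryos, and no other gene of those lists in either comparison with control.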

Additional observations from a re-analysis of the deposited data

How the results depend on the processing

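The limits are those of 3 embryos per genotype. Over the 10 genes and 3 comparisons, 453 of the recomputed estimates kept their direction and their side of the threshold, 17 changed sign and 7 passed the threshold; in the fits chosen after seeing the data these numbers were 43, 7 and none. Every estimate that changed sign had not passed the test. The causes of these shifts were not tested.

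The number of genes called in Islet1Cre;Ebf1fl/- embryos (159) became 401 with DESeq2, 311 without the filter, 259 with the 6 embryos of the comparison, 61 with the code prefix as covariate and 252 without the 3 libraries, and ran from 15 (without Islet1Cre;Ebf1fl/- replicate 2) to 397 (without Dlx5/6::Cre;Ebf1fl/- replicate 1) with 1 embryo left out. The number in Dlx5/6::Cre;Ebf1fl/- embryos (392) became 862, 708, 181 and 32 in the first 4 of these fits and 2 within embryo codes D, and ran from 143 (without Control replicate 1) to 613 (without Dlx5/6::Cre;Ebf1fl/- replicate 1). Between the mutants (0) it became 18, 13, 2, 1 and 7 in the 5 fits, and ran from 0 to 4.

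Of the 10 immediate early genes, 1 was called in Islet1Cre;Ebf1fl/- embryos with the 6 embryos alone (Arc) and 2 in Dlx5/6::Cre;Ebf1fl/- embryos with DESeq2 and without the filter (Npas4 and Nr4a1), and from 0 to 1 in either comparison with 1 embryo left out (Arc). Over the other lists DESeq2 called 2 genes higher in Islet1Cre;Ebf1fl/- embryos, 6 higher and 3 lower in Dlx5/6::Cre;Ebf1fl/- embryos and 1 higher between the mutants, and the prefix covariate left 0 higher and 0 lower in Dlx5/6::Cre;Ebf1fl/- embryos. Of the genes nearest to Fos, 0 remained with profiles centred within genotypes.

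Changes of sign against control were as follows. Without the 3 libraries Egr1 was at 0.058 (Islet1Cre;Ebf1fl/-) and 0.20 (Dlx5/6::Cre;Ebf1fl/-) and Nr4a3 at 0.20 (Dlx5/6::Cre;Ebf1fl/-). Fosb in Dlx5/6::Cre;Ebf1fl/- embryos was at -0.29 with the prefix covariate and -0.30 within codes D, where the lone control was assumed to vary like the mutants. With 1 embryo left out, Egr3 ran from -0.010 to 0.39 in Islet1Cre;Ebf1fl/- embryos, and in Dlx5/6::Cre;Ebf1fl/- embryos Fosb ran from -0.073 to 0.39, Egr1 from -0.43 to 0.040, Egr2 from -0.24 to 0.42 and Nr4a3 from -0.33 to 0.070. Between the mutants, Fosb, Egr3 and Nr4a3 were at -0.20, -0.31 and -0.11 with the prefix covariate, and Egr1, Nr4a1 and Arc at 0.14, 0.17 and 0.0074 without the 3 libraries. With 1 embryo left out Egr1 ran from -0.24 to 0.23, Nr4a1 from -0.21 to 0.15 and Arc from -0.48 to 0.038.

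No label ties embryos of the same replicate number across genotypes: deviations from group means correlated at -0.023 on average between embryos of the same number and at 0.012 between others. With the replicate block, 143, 363 and 0 genes were called in the 3 comparisons and 0 of the 10 immediate early genes in any, and of the list genes Bnip3 was no longer called in Dlx5/6::Cre;Ebf1fl/- embryos (adjusted p = 0.0564).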
